A study of Homo sapiens with 13 samples.

Results

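Gene expression was measured by RNA sequencing in HuT78, a human T cell line that was established from Sézary syndrome, a leukemic cutaneous T cell lymphoma. All 13 libraries came from cells treated for 72 h: 4 with 10 nM chaetocin (replicates 1 to 4), 3 with 10 nM F5446 (replicates 2 to 4), 4 with 1 µM romidepsin (replicates 1 to 4) and 2 with the vehicle DMSO (replicates 1 and 4). The 4 chaetocin libraries were set against the other 9 pooled, over 17252 tested genes of 45744. The model had a term that separates libraries numbered 1 or 2 from those numbered 3 or 4. The comparison asks which transcripts stood apart with chaetocin whichever of the 3 other treatments served as the reference. All libraries are of 1 cell line. The labels do not say whether replicates were separate cultures, so the p-values reflect the spread among these libraries and no more. T cell defining markers were present in every library (summed level 1323 to 1982 CPM with chaetocin and 1506 to 2078 in the others, where CPM is the count of a gene scaled to a common normalized library size). Myeloid markers summed to at most 4.91 CPM with chaetocin and endothelial markers to at most 4.11 CPM in the others. Epithelial and keratinocyte markers were higher, at 150 to 172 CPM with chaetocin and 137 to 203 in the others. B cell and fibroblast markers were also present and are given below.

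Chaetocin is a fungal metabolite known as an inhibitor of SUV39H1, an enzyme that methylates lysine 9 of histone H3 and so marks heterochromatin, and it also reacts with the thioredoxin system. F5446, known by a code name, is likewise an inhibitor of SUV39H1. Romidepsin blocks histone deacetylases and is used to treat cutaneous T cell lymphoma. T cells respond to interferon through JAK kinases and STAT transcription factors, which act at GAS and ISRE elements of the DNA. Interferon targets include guanylate-binding proteins, the peptide transporter TAP1 and the HLA class I heavy chains that present peptides at the cell surface. Integrins hold T cells to vessel walls and tissue, and granzymes and granulysin are the cargo with which cytotoxic cells kill.

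With chaetocin, 65 genes fell and 5 rose against the 9 other libraries pooled. The genes that fell included interferon-response genes (GBP1, GBP2, GBP4, GBP5, OAS2, CMPK2, SLFN5), class I antigen presentation genes (TAP1, HLA-B, HLA-E, ERAP2), the homing integrin ITGB7, the interleukin 2 receptor chain IL2RB and the cytotoxic effectors GZMA and GNLY. The 5 that rose were ITGB8, FOXP4, ACTA2, HHIP and VIM. The median log2 difference was -0.61 over the genes that fell and 0.54 over those that rose, against -0.01 over all genes tested. On the log2 scale 17 genes fell by more than 1. All 10 called genes with a mean under 5 CPM are among these 17, and their differences rest on few counts. The call is an adjusted p under 0.05 by the quasi-likelihood test of edgeR. It held for 0.406% of the genes tested, 0.377% called lower and 0.029% called higher. All 70 called genes are protein coding, as are 75.3% of the genes tested. At an unadjusted p under 0.05 there were 1515 genes, 908 lower and 607 higher, where 863 would be so with no change. In bulk RNA, fewer cells that express a gene and less of its RNA per cell cannot be told apart.

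The library totals ran from 19901052 to 30816188 counts. Chaetocin replicate 3 stood apart on the first principal component, with a score of 112.7 against -36.7 to 18.7 for the other 12 libraries. Its mitochondrially encoded genes took 15.9% of its counts (5.22 to 12.7% elsewhere) and its TMM scaling factor was 0.859 (0.989 to 1.04 elsewhere). Without this library 62 genes were called, 43 of them among the 70. The number of calls moved more with other libraries. It was 19 without chaetocin replicate 2, 30 without chaetocin replicate 1 and 39 without romidepsin replicate 1. It was 11 without the replicate-number term and 6 with romidepsin left out of the pool. The log2 difference of each of the 70 genes kept its sign in all 30 alternatives in which it was tested. These alternatives reuse the counts on which the genes were called, so a kept sign is no independent support.

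Most called genes differed from each of the 3 other groups taken alone. Of the 70, 68 lay on the same side of DMSO, F5446 and romidepsin with an unadjusted p under 0.05 in each contrast (0.394% of genes tested). The exceptions were TGFBR3, a co-receptor for transforming growth factor beta, and ATP8A1, a phospholipid flippase, whose difference from DMSO did not pass. All 3 contrasts use the same chaetocin libraries. The 3 references also make up the pool against which the genes were called, and only called genes were counted. Agreement with each reference is therefore partly built in and is no independent support. The median over the genes that fell was -0.60 against DMSO, -0.52 against F5446 and -0.68 against romidepsin. The smallest of the 3 differences was that from F5446 for 37 genes, from DMSO for 26 and from romidepsin for 7. The largest was that from romidepsin for 48.

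**Figure D1:**
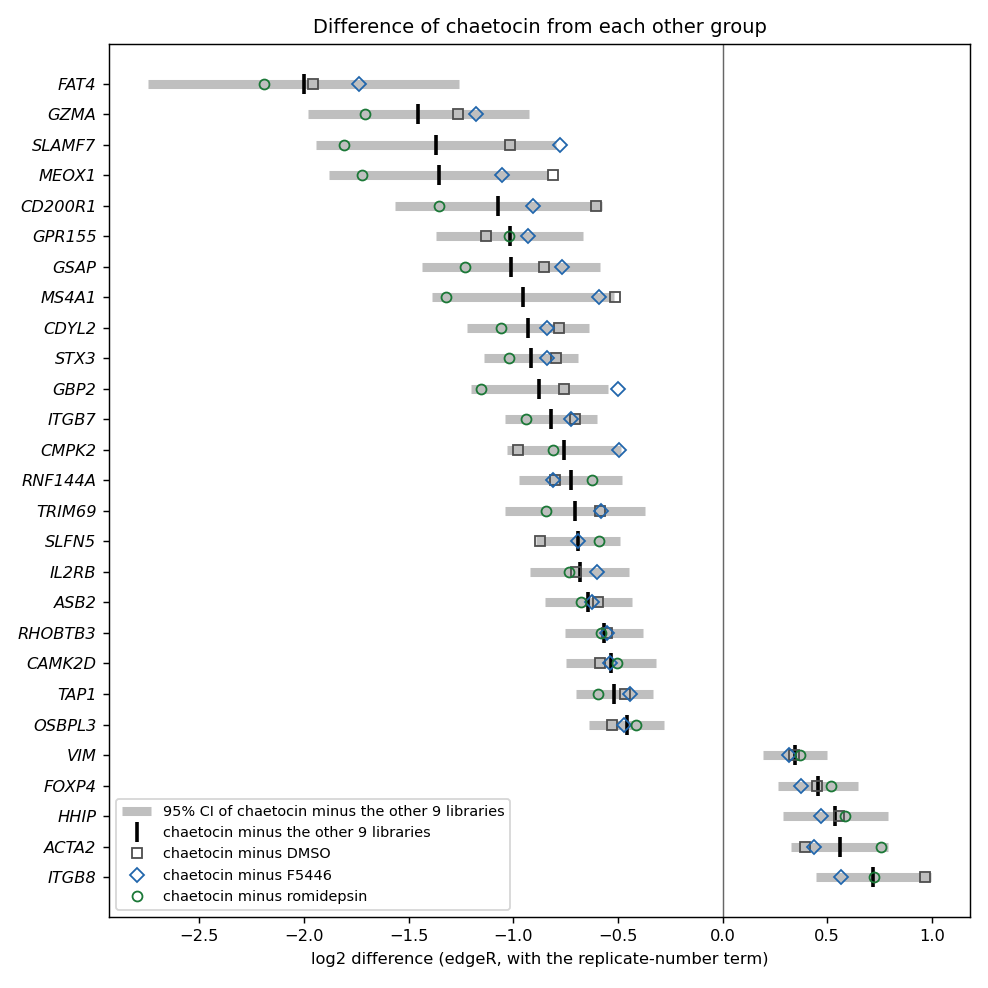
Log2 difference of chaetocin from DMSO (squares), F5446 (diamonds) and romidepsin (circles), and from the 9 other libraries pooled (black bar, with its 95% CI in grey), for called genes with the largest differences or the smallest p-values against all 3 groups. All markers of a gene lie on the same side of 0, and they lie closest together for genes such as ASB2, RHOBTB3 and CAMK2D and farthest apart for SLAMF7.

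STX3 had the smallest p-value of all genes. It encodes syntaxin 3, a SNARE protein that drives the fusion of vesicles with the plasma membrane. Its level was 18.7, 20.9, 29.6 and 34.4 CPM with chaetocin replicates 1 to 4. It was 42.97, 49.1 and 51.2 CPM with F5446, 43.2, 47.2, 63.9 and 52.9 with romidepsin and 37.2 and 51.9 with DMSO. All 4 chaetocin libraries were below all 9 others (log2 difference -0.91, 95% CI -1.14 to -0.69, adjusted p = 2.37e-05). ITGB7, the beta 7 integrin chain with which lymphocytes home to gut and, paired with CD103, hold to epithelium, was at 24.8, 35.7, 35.6 and 33.6 CPM with chaetocin. The levels were 52.2, 51.9 and 59.2 CPM with F5446, 58.6, 62.6, 59.1 and 68.5 with romidepsin and 47.4 and 58.8 with DMSO. The groups again did not overlap (log2 difference -0.82, 95% CI -1.04 to -0.60, adjusted p = 9.53e-05). Such separation, all 4 chaetocin libraries outside the range of the 9 others, held for 0.765% of the genes tested, with 0.464% below and 0.301% above. Among the called genes it held for 34 of the 65 that fell and 3 of the 5 that rose. These genes were called on the same libraries, so a higher share among them is largely built in and is no independent support.

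**Figure D2:**
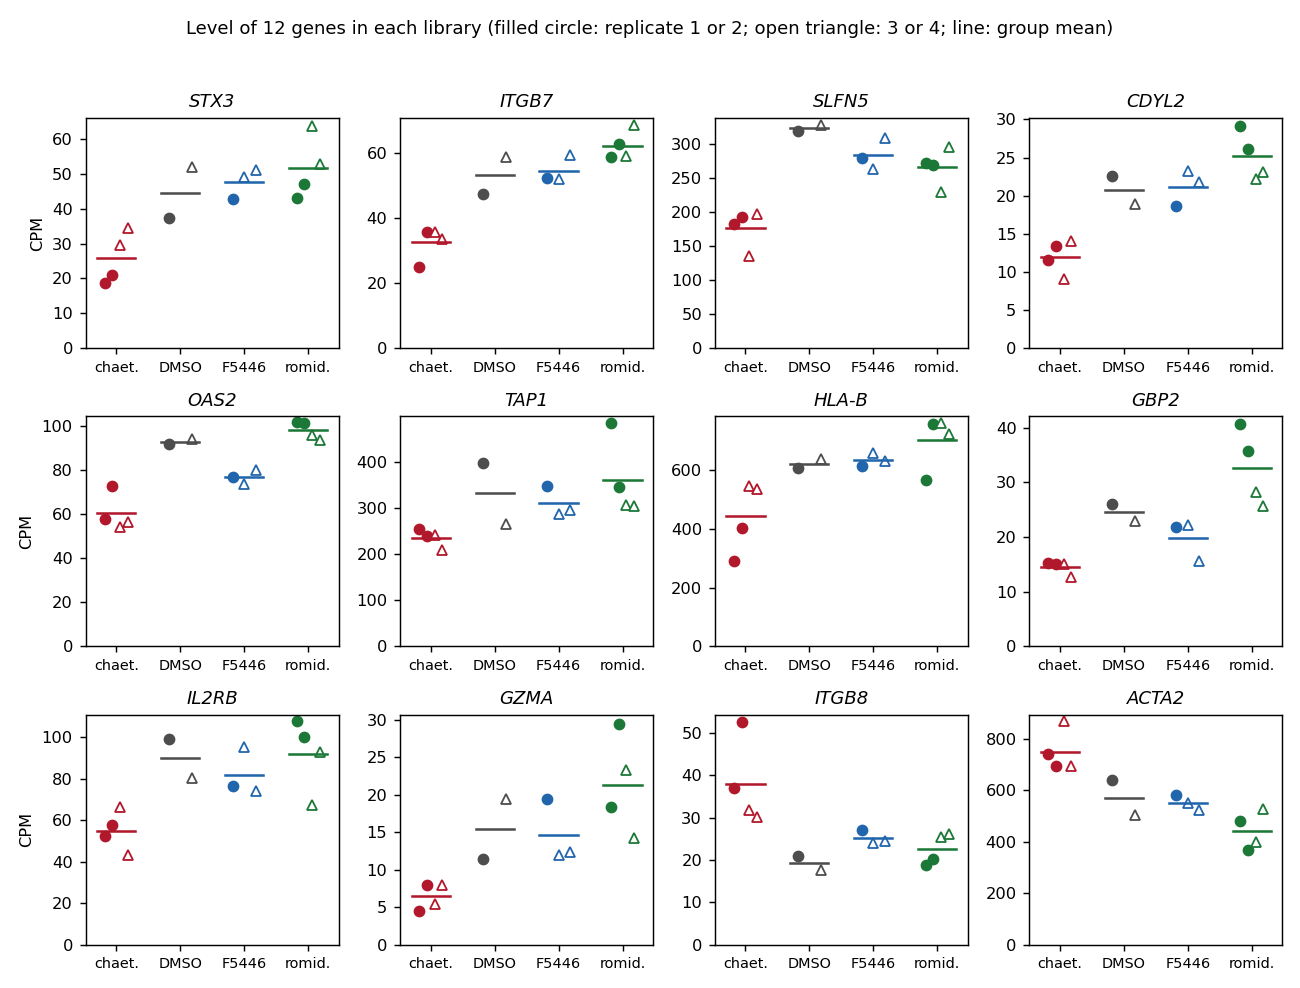
CPM of 12 called genes in each library, by treatment, with the group mean as a line; filled circles are replicates 1 and 2, open triangles replicates 3 and 4. In all 12 panels the chaetocin libraries lie outside the range of the other groups, above it for ITGB8 and ACTA2 and below it for the other 10. The 12 are among the 37 of 70 called genes with such separation. They do not stand for the remaining called genes, such as CMPK2, HLA-E and MEOX1, which overlap.

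Other called genes with small p-values against all 3 groups have roles in signalling, ubiquitin transfer and lipid handling. ASB2, the substrate-binding part of a ubiquitin ligase, was at 61.5, 79.5, 51.9 and 68.1 CPM with chaetocin and at 89.8 to 127 CPM (median 99.6) in the other libraries (log2 difference -0.64, 95% CI -0.85 to -0.43, adjusted p = 0.00146). RHOBTB3, a BTB domain protein, was at 84.9, 116, 88.4 and 107 CPM against 128 to 169 CPM (median 145), with a difference of -0.57 (adjusted p = 0.00174). Both were separated from all 9 others. RNF144A, a RING-type ubiquitin ligase, differed by -0.73 (adjusted p = 0.00249), GPR155, a lysosomal cholesterol sensor, by -1.02 (adjusted p = 0.00249), and OSBPL3, an oxysterol-binding protein, by -0.46 (adjusted p = 0.00681). CAMK2D, a calcium and calmodulin-dependent kinase, differed by -0.53 (adjusted p = 0.0123). FAT4, an atypical cadherin, was expressed at a low level of 0.696, 1.06, 1.54 and 0.311 CPM with chaetocin and 2.204 to 5.07 CPM (median 3.500) in the others, without overlap (log2 difference -2.003, 95% CI -2.74 to -1.26, adjusted p = 0.00591). Its difference rests on few counts, as do those of the 10 called genes with a mean under 5 CPM.

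Of 69 tested interferon-stimulated effector genes, 7 fell and 0 rose, 52 lay below 0 and the median was -0.20. Over all genes tested, 0.377% were called lower and 51.2% lay below 0. The gene lists were chosen with earlier results of these data known, so their counts are no independent support. SLFN5, an interferon-inducible Schlafen protein, was at 183, 194, 136 and 197 CPM with chaetocin and 229 to 329 CPM (median 280.2) in the others, without overlap (log2 difference -0.69, 95% CI -0.89 to -0.49, adjusted p = 0.000376). OAS2, a sensor of double-stranded RNA, was at 57.97, 73.1, 54.2 and 56.7 CPM against 74.02 to 102 CPM (median 93.7), also without overlap (log2 difference -0.59, 95% CI -0.79 to -0.38, adjusted p = 0.00249). Of the guanylate-binding proteins, GTPases that attack intracellular pathogens, GBP1, GBP2, GBP4 and GBP5 fell. GBP2 was at 15.2, 15.1, 15 and 12.7 CPM with chaetocin, below the 15.6 to 40.7 CPM (median 25.8) of the others (log2 difference -0.88, 95% CI -1.20 to -0.55, adjusted p = 0.00651). GBP1 differed by -0.56 (adjusted p = 0.0192), GBP4 by -0.47 (adjusted p = 0.0312) and GBP5 by -0.46 (adjusted p = 0.0155), and of these GBP5 was separated from all 9 others. With 1 library left out, GBP1 was called in 9 of 13 fits, GBP4 in 7 and GBP5 in 10, and none of these was called without chaetocin replicate 1, 2 or 4. CMPK2, a mitochondrial nucleotide kinase, was at 46.6, 34.7, 11.96 and 17.9 CPM, overlapping the 20.7 to 82.4 CPM (median 30.1) of the others. Its difference was -0.76 (adjusted p = 0.00518) with the replicate-number term and -0.69 without it (adjusted p = 0.966). GBP2 and CMPK2 also lost their calls without chaetocin replicate 2 (adjusted p = 0.058 and 0.057). Other well-known genes of the response did not pass. ISG15, a ubiquitin-like modifier, was at 0.13 (adjusted p = 0.888) and MX1, an antiviral GTPase, at -0.21 (adjusted p = 0.913). NLRC5, the transactivator of class I genes, was at -0.47 (adjusted p = 0.086), the transcription factor IRF1 at -0.36 (adjusted p = 0.244) and STAT2 at -0.03 (adjusted p = 0.973). ISG15, MX1 and STAT2 were chosen as examples after their values were seen.

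Of 21 tested genes of class I antigen presentation 5 fell and 0 rose, with 19 below 0 and a median of -0.23. The shares over all genes tested were 0.377% called lower and 51.2% below 0. TAP1, which with TAP2 pumps peptides into the endoplasmic reticulum, was at 255, 239, 241 and 208 CPM with chaetocin and 264 to 484 CPM (median 306) in the others (log2 difference -0.52, 95% CI -0.70 to -0.33, adjusted p = 0.00389). No chaetocin library reached the lowest of the others. HLA-B, a class I heavy chain, was at 289, 401, 545 and 534 CPM with chaetocin, all below the others at 565 to 759 CPM (median 636) (log2 difference -0.59, 95% CI -0.81 to -0.37, adjusted p = 0.00681). HLA-E, the ligand of the inhibitory receptor CD94-NKG2A, was at 36.5, 59.9, 109 and 91.4 CPM against 73.6 to 148 CPM (median 123), overlapping (log2 difference -0.65, 95% CI -0.88 to -0.41, adjusted p = 0.00651). ERAP2, which trims peptides for class I, was at 89.6, 96.6, 65.5 and 95.6 CPM against 98.2 to 122 CPM (median 115), without overlap (log2 difference -0.39, 95% CI -0.57 to -0.21, adjusted p = 0.0382). The HLA heavy chain genes are close copies of each other, and how reads were divided among them is not known here. Members of the same list that did not pass, named after their values were seen, were B2M, the light chain, at -0.57 (adjusted p = 0.0969), HLA-C at -0.31 (adjusted p = 0.23), HLA-F at -0.57 (adjusted p = 0.0849) and the immunoproteasome subunit PSMB9 at -0.42 (adjusted p = 0.0802).

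HLA-B and HLA-E differed more between chaetocin and the other libraries in replicate numbers 1 and 2 than in 3 and 4. HLA-B was at -0.89 and -0.33, and HLA-E at -0.89 and -0.47. The interaction of chaetocin with the replicate-number set was not called for either (adjusted p = 0.426 and 0.723). HLA-B lost its call without chaetocin replicate 2 (adjusted p = 0.0553), as did TAP1 (adjusted p = 0.0575). HLA-E was called in all 13 fits that left out 1 library. ERAP2 was called in 6 of the 13, not without chaetocin replicate 1, 2 or 3, F5446 replicate 4 or romidepsin replicate 1, 2 or 3 (adjusted p up to 0.262), and in 7 of 17 other settings.

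Class II antigen presentation, the counterpart pathway for CD4 T cells, had 0 of 13 tested members called and a median of -0.02. Its median was 0.26 against DMSO, 0.01 against F5446 and -0.18 against romidepsin, while that of class I was -0.22 against DMSO, -0.30 against F5446 and -0.34 against romidepsin.

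Promoter sequences are shown for the genes that fell with chaetocin and carry an ISRE, a classical interferon element, to show where the element lies. RefSeq promoters (GRCh38.p14) were at hand for 44 of the 65 genes that fell and for all 5 that rose. GBP2, GBP5, SLFN5, OAS2 and HLA-E are among those without one and were not searched. The 250 bases before each start were searched on both strands for the ISRE, spelled GAAANNGAAA, and the GAS element, spelled TTCNNNGAA, which reads the same on both strands. The motifs do not contain one another. An ISRE match was found in 4 of the 44 genes that fell, GBP1, TAP1, ERAP2 and TRIM69, a tripartite motif ubiquitin ligase. Of all 27305 genes with a promoter listed, 3.71% have an ISRE match, as do 3.44% of the 11268 of them that were tested. A GAS match was found in 4 of the 44 (TAP1, CCR1, BCHE and CLSTN1), in 8.09% of all genes and in 7.47% of those tested. Per window, matches are in 3.02% (ISRE) and 6.57% (GAS) of 35116 windows. The following windows are written 5′ to 3′ with the ISRE match in capitals, the last base being next to the transcription start.
GBP1, chr1:89065209-89065458, minus strand: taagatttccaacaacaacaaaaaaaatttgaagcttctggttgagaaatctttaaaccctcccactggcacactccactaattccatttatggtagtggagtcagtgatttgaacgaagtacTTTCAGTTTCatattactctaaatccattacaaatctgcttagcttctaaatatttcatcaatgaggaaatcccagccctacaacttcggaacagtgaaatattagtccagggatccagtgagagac
TAP1, chr6:32853705-32853954, minus strand: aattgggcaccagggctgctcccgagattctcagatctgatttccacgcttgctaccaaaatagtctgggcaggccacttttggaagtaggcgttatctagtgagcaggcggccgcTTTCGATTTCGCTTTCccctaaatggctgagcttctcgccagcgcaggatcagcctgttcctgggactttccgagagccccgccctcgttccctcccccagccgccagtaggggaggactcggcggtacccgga
ERAP2, chr5:96876250-96876499, plus strand: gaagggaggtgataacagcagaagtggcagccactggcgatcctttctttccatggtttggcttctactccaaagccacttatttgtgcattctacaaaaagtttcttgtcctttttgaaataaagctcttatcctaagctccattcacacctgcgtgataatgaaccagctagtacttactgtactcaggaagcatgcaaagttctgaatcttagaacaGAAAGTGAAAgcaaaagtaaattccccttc
TRIM69, chr15:44736278-44736527, plus strand: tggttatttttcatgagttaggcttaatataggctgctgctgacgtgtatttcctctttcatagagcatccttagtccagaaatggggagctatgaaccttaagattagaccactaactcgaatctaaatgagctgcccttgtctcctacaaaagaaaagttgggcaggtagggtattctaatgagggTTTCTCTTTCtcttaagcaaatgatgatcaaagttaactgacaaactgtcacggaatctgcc
In GBP1 the match spans positions -127 to -118 from the start. In this TAP1 window, 1 of 2 in the table, overlapping matches span -134 to -125 and -128 to -119. The match is at -30 to -21 in ERAP2, in 1 of its 2 windows, and at -62 to -53 in TRIM69. Among the 5 genes that rose, ACTA2 has an ISRE match in 1 of its 2 windows, at -250 to -241, the far end of the window.
The windows of ITGB7 and STX3, the called genes with the smallest p-values, hold neither motif and are given for comparison.
ITGB7, chr12:53207252-53207501, minus strand: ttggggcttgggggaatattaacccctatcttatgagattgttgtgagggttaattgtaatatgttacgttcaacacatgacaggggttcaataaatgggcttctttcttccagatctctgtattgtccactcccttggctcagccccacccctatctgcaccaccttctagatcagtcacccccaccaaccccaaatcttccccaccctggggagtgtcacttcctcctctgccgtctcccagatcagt
STX3, chr11:59755126-59755375, plus strand: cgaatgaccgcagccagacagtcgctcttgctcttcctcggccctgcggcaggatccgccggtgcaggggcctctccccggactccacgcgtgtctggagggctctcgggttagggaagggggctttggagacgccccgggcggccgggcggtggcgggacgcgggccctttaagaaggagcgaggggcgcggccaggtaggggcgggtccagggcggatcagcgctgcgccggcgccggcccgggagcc
The windows of GBP4, GBP6, CMPK2, HLA-B and GZMA have neither motif in these letters. A match is a description of the sequence, and the authors' own positions are on another build, hg19.

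Cytotoxic effector genes were called in 2 of 15 tested members, both lower, with 11 below 0 and a median of -0.26. The shares over all genes tested were 0.377% called lower and 51.2% below 0. GZMA, granzyme A, was at 4.57, 7.92, 5.38 and 7.93 CPM with chaetocin, at 19.4, 11.9 and 12.4 CPM with F5446, at 18.4, 29.4, 23.2 and 14.2 with romidepsin and at 11.4 and 19.4 with DMSO. The groups did not overlap (log2 difference -1.45, 95% CI -1.98 to -0.93, adjusted p = 0.0122). The call was lost without chaetocin replicate 2 (adjusted p = 0.0553) and without chaetocin replicate 3 (adjusted p = 0.0888). GNLY, granulysin, was low everywhere, at 0.522, 1.19, 0.797 and 1.17 CPM with chaetocin and 1.84 to 4.41 CPM (median 2.400) in the others, again without overlap (log2 difference -1.53, 95% CI -2.27 to -0.79, adjusted p = 0.0466). GNLY was called in 1 of the 13 fits that left out 1 library. IFNG, interferon gamma, was at 0.8698, 0.156, 0 and 0.583 CPM against 0.464 to 4.695 CPM (median 1.39), overlapping and not called (log2 difference -2.18, adjusted p = 0.126). FASLG, the Fas ligand, was at -0.81 (adjusted p = 0.307) and PRF1, perforin, named after its value was seen, at -0.23 (adjusted p = 0.503). Among libraries numbered 1 or 2 the median of the list was -0.51, and among those numbered 3 or 4 it was -0.13.

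Receptors and adhesion molecules of the lymphocyte surface were also among the genes that fell. SLAMF7, a homotypic receptor of cytotoxic and plasma cells, was at 3.001, 3.13, 1.79 and 2.37 CPM with chaetocin and 3.53 to 14.95 CPM (median 5.12) in the others, without overlap (log2 difference -1.37, 95% CI -1.94 to -0.79, adjusted p = 0.0159). Its difference was -0.78 against F5446 and -1.81 against romidepsin, and its call was lost without chaetocin replicate 1 or 2 or romidepsin replicate 1. Of 24 tested integrin and adhesion genes 3 fell, ITGB7, ITGAX and ITGA6, with a median of -0.14, where 0.377% of all genes tested were called lower. ITGAX, the alpha X chain better known from dendritic cells, was at 0.435, 0.375, 0 and 0 CPM with chaetocin against 0.773 to 2.65 CPM (median 1.88), without overlap (log2 difference -3.30, 95% CI -4.77 to -1.83, adjusted p = 0.0247). ITGAX lost its call without chaetocin replicate 2, 3 or 4. ITGA6, a laminin receptor chain, was at 1.04, 0.782, 3.54 and 2.14 CPM against 1.95 to 8.24 CPM (median 4.69) with overlap (log2 difference -1.53, 95% CI -2.25 to -0.81, adjusted p = 0.043), and was called in 4 of the 13 fits that left out 1 library. IL2RB, the beta chain shared by the receptors for interleukins 2 and 15, was at 52.4, 57.8, 66.3 and 43.4 CPM against 67.1 to 107 CPM (median 92.9) (log2 difference -0.68, 95% CI -0.92 to -0.45, adjusted p = 0.00389), all 4 libraries below the rest. It was 1 of 34 tested genes of interleukin receptors and JAK-STAT signalling that were called, a list with a median of -0.10. CCR1, a receptor for inflammatory chemokines, was 1 of 16 tested chemokine receptor and egress genes called (log2 difference -0.61, adjusted p = 0.036, list median -0.20). CD200R1, an inhibitory receptor, differed by -1.07 (adjusted p = 0.0482). CCR1 and CD200R1 were each called in 5 of the 13 fits that left out 1 library.

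MS4A1, which encodes the B cell antigen CD20, was at 10.7, 11.6, 7.72 and 7.85 CPM with chaetocin and 10.1 to 33.3 CPM (median 15.3) in the others, with overlap (log2 difference -0.95, 95% CI -1.39 to -0.52, adjusted p = 0.0407). It was called in 5 of the 13 fits that left out 1 library, not without any 1 of the chaetocin libraries, F5446 replicate 4 or romidepsin replicate 1, 2 or 4, and it was not called without the replicate-number term (adjusted p = 0.461). MS4A1 was 1 of 5 tested B cell markers called, and B cell markers summed to 51.2 to 105 CPM with chaetocin and 62.5 to 99.5 in the others. Their part in the result was not tested. T cell receptor and proximal signalling genes had 0 of 25 members called and a median of -0.06. The summed T cell marker ranges of the 2 sides overlap.

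**Figure D3:**
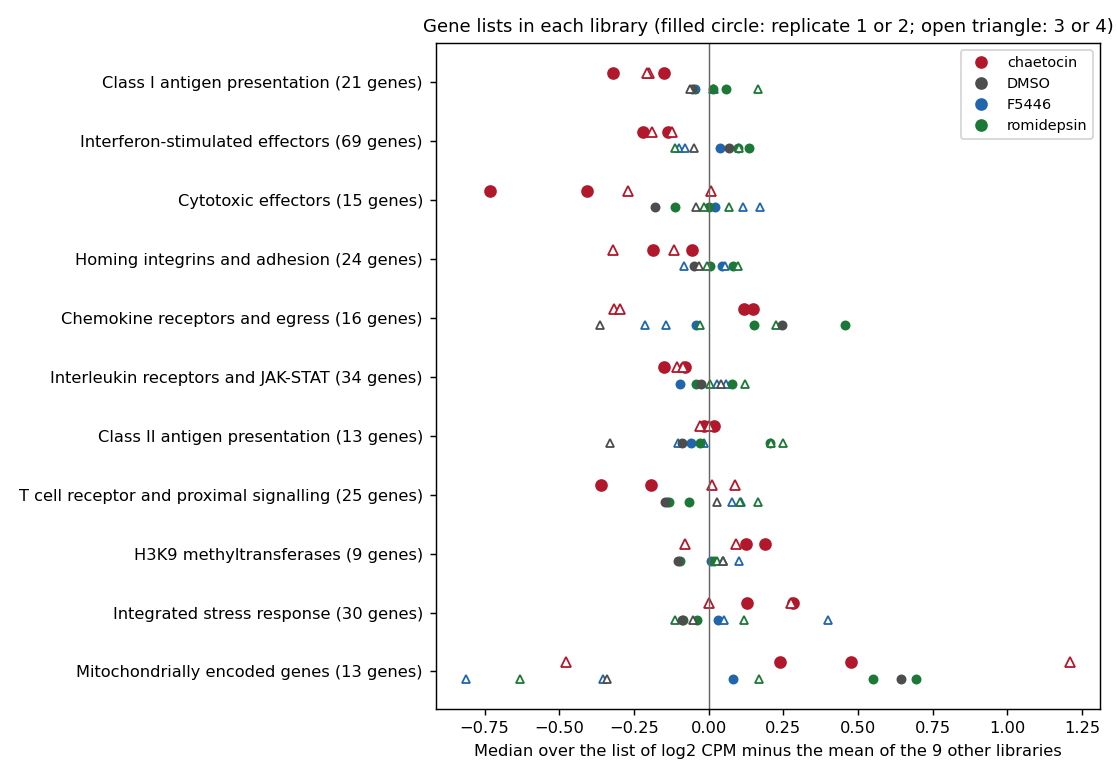
Median over each gene list of the log2 CPM of a library minus the mean of the 9 other libraries, 1 point per library (red, chaetocin; filled circles, replicates 1 and 2; open triangles, 3 and 4). The 4 chaetocin points of class I antigen presentation, interferon-stimulated effectors, homing integrins and interleukin receptors lie on the negative side. For homing integrins and interleukin receptors they overlap points of other libraries. The chaetocin points of mitochondrially encoded genes spread to both sides, with chaetocin replicate 3 farthest to the right.

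The enzymes that chaetocin is known to act on did not differ at the transcript level beyond the threshold. SUV39H1 was at 33.9, 44.1, 32.7 and 41.9 CPM with chaetocin and 34.4 to 47.7 CPM (median 38.8) in the others (log2 difference -0.04, 95% CI -0.26 to 0.18), and SUV39H2 was at 0.15 (95% CI -0.08 to 0.38). Their signs turned without chaetocin replicate 3, where they were 0.067 and -0.0029. Of 9 tested lysine 9 methyltransferase genes of histone H3, 0 were called and the median was 0.07. EHMT1 was at 0.07, EHMT2 at 0.03 and SETDB1 at -0.09, with intervals of -0.12 to 0.27, -0.18 to 0.25 and -0.29 to 0.11. TXNRD1, thioredoxin reductase, was at 0.06 (95% CI -0.11 to 0.23), its substrate TXN at 0.02 (95% CI -0.19 to 0.24) and HDAC1, a target of romidepsin, at -0.07 (95% CI -0.24 to 0.11). A chromodomain gene of heterochromatin did fall. CDYL2, a reader of lysine methylation on histone H3, was at 11.6, 13.3, 9.07 and 13.99 CPM with chaetocin and 18.7 to 29.2 CPM (median 22.6) in the others, without overlap (log2 difference -0.93, 95% CI -1.22 to -0.64, adjusted p = 0.000974). It was the 1 called gene of 13 tested HP1 and heterochromatin reader genes, whose median was 0.01. It was called in all 13 fits that left out 1 library.

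The transcription factor MEOX1, a mesoderm homeobox gene, was at 4.78, 6.57, 1.05 and 1.59 CPM with chaetocin and 2.85 to 16.9 CPM (median 6.54) in the others, which overlap (log2 difference -1.36, 95% CI -1.88 to -0.83, adjusted p = 0.00681). GSAP, a gamma-secretase activating protein, differed by -1.01 (adjusted p = 0.0167) and TRIM69 by -0.70 (adjusted p = 0.0405), called in 10 and 3 of the 13 fits that left out 1 library. The other 30 called genes lie outside the naming rule and all fell; they are listed here after their values were seen. They include GBP6 (log2 difference -1.98, adjusted p = 0.00651), a further guanylate-binding protein, and RNF213 (log2 difference -0.53, adjusted p = 0.00651), a large ubiquitin ligase induced by interferon. Immune receptors among them were CD48, a ligand of SLAM family receptors, CD226, an activating receptor of T and natural killer cells, TGFBR3 and the semaphorin receptor PLXNC1. These were called in 5, 2, 4 and 7 of the 13 fits that left out 1 library. IKZF1, the lymphoid transcription factor Ikaros, differed by -0.46 (adjusted p = 0.0309). Signalling genes were DUSP4, a phosphatase of MAP kinases, PTPN12, a tyrosine phosphatase, RGS3, a regulator of G proteins, CDC42BPA, a kinase downstream of CDC42, and PRKAA1, a catalytic subunit of AMP-activated kinase. Cytoskeletal genes were MYO1F, an unconventional myosin, and SEPTIN11. Lipid and redox enzymes were LPGAT1, an acyltransferase, ATP8A1 and BLVRA, biliverdin reductase. The remaining genes were OSTF1, FAM107B, BCHE, WWP1, PTMS, CLSTN1, GLG1, ARL10, HMCN1, KCTD9, TSPAN7, TRANK1 and CLIC5. PRKAA1 and CLIC5 were each called in 2 of the 13 fits that left out 1 library, and ATP8A1 in 3. GBP6, CD226, RGS3, HMCN1, TSPAN7 and CLIC5 have means under 5 CPM, so their differences rest on few counts. GBP6 was called in all 13 such fits. It was not called by limma-voom, without the replicate-number term or with romidepsin left out of the pool.

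The 5 genes that rose did so by less than 1 on the log2 scale. ITGB8, which pairs with alpha V integrin to activate latent transforming growth factor beta, was at 37.1, 52.6, 31.9 and 30.2 CPM with chaetocin, at 27.1, 24.1 and 24.4 CPM with F5446, at 18.8, 20.2, 25.6 and 26.3 with romidepsin and at 20.98 and 17.7 with DMSO. All 4 chaetocin libraries were above all others (log2 difference 0.72, 95% CI 0.44 to 0.997, adjusted p = 0.00681). The call was lost without chaetocin replicate 2 (adjusted p = 0.125). ACTA2, smooth muscle actin, was at 741, 693, 869 and 694 CPM with chaetocin and 368 to 639 CPM (median 523) in the others, without overlap (log2 difference 0.56, 95% CI 0.33 to 0.79, adjusted p = 0.0199). Its call was lost without chaetocin replicate 1, 2 or 3, romidepsin replicate 1 or DMSO replicate 4. FOXP4, a forkhead transcription factor, was at 110.2, 98.2, 87.9 and 77.8 CPM against 53.9 to 77.1 CPM (median 67.9), without overlap (log2 difference 0.46, 95% CI 0.26 to 0.65, adjusted p = 0.0159), and lost its call without chaetocin replicate 1 or 2. VIM, the intermediate filament vimentin, was at 3042, 2736, 3061 and 3155 CPM against 2044 to 2793 CPM (median 2562), and replicate 2 fell inside that range (log2 difference 0.35, 95% CI 0.19 to 0.50, adjusted p = 0.0236). HHIP, which binds and restrains hedgehog ligands, was at 45.7, 50.96, 29.2 and 38.9 CPM against 22.7 to 34.8 CPM (median 26.5), with replicate 3 inside it (log2 difference 0.54, 95% CI 0.29 to 0.79, adjusted p = 0.0371). With 1 library left out, VIM was called in 8 of 13 fits and HHIP in 6. VIM, FOXP4 and HHIP were not called when libraries were scaled by their totals only.

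ACTA2 is also a fibroblast marker. Fibroblast markers summed to 941 to 1199 CPM with chaetocin and 586 to 902 in the others, with ACTA2 the most abundant and FAP at 0 in all libraries. ACTA2 was the 1 of 8 tested markers that was called. THY1 was at 0.25 (adjusted p = 0.31) and COL1A1 at 0.34 (adjusted p = 0.434). Their part in the result was not tested.

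Several lists held members with small p-values and no call. Of 30 tested genes of the integrated stress response 0 were called, 24 lay above 0 and the median was 0.15. ATF5, a stress transcription factor, was at 279, 269, 384 and 174 CPM with chaetocin and 81.4 to 198 CPM (median 105) in the others, with replicate 4 inside their range (log2 difference 1.26, 95% CI 0.71 to 1.802, adjusted p = 0.0795). The amino acid transporter pair SLC7A5 and SLC3A2 was at 0.38 (adjusted p = 0.126) and 0.49 (adjusted p = 0.182). Of 18 tested NF-kB genes 0 were called, with a median of 0.13, RELA at 0.34 (adjusted p = 0.103) and CFLAR, an inhibitor of caspase 8, at -0.31 (adjusted p = 0.0817). Thioredoxin and glutathione enzymes had 0 of 22 called and a median of 0.03, with PRDX1, a peroxiredoxin, at 0.24 (adjusted p = 0.258). GATA3, a T helper transcription factor, was at 0.43 (adjusted p = 0.308) and TOX, a regulator of exhausted T cells, at 0.23 (adjusted p = 0.28). PRDM2, a histone methyltransferase, was at 0.16 (adjusted p = 0.496).

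Mitochondrially encoded genes had 0 of 13 called, all 13 above 0 and a median of 0.42. Without chaetocin replicate 3 their median was -0.15. Libraries numbered 1 or 2 gave -0.15 and libraries numbered 3 or 4 gave 0.72. Oxidative phosphorylation subunits encoded in the nucleus had 0 of 80 called and a median of 0.16, 0.03 without that library. Cytosolic ribosomal proteins had 0 of 78 called and a median of 0.13, 0.01 without it. The class I median was -0.28 and that of interferon-stimulated effectors -0.17 without the same library.

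The same contrast was run for each other treatment. F5446 against the other 10 libraries gave 0 calls (0% of genes tested) by edgeR, with 529 genes at an unadjusted p under 0.05. Romidepsin against the other 9 gave 19 (0.11%), 18 higher and 1 lower, with 1022 at an unadjusted p under 0.05. DMSO against the other 11 gave 0 (0%), with 766 at an unadjusted p under 0.05. The groups hold 3, 4 and 2 libraries, and their contrasts include the chaetocin libraries in the pool. Among DMSO, F5446 and romidepsin alone, the F-test called 4 genes (0.0232%), with 701 at an unadjusted p under 0.05. None of the 70 chaetocin genes was among the 4, and 12 of them had an unadjusted p under 0.05 in that test. For 9 of the 12 the romidepsin mean was the farthest of the 3 from chaetocin, as for GBP2 (24.5 CPM with DMSO, 19.8 with F5446, 32.6 with romidepsin, 14.5 with chaetocin) and MS4A1 (13.7, 13.3, 23.8 and 9.45).

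The replicate numbers split the libraries into 2 chaetocin and 4 others (numbers 1 and 2) and 2 chaetocin and 5 others (numbers 3 and 4). All 70 genes had the same sign in both sets. They were called on these same libraries, so a shared sign is largely built in and is no replication. By edgeR the interaction of chaetocin with the set was called for 0 of 17252 genes (0%), with 1287 at an unadjusted p under 0.05. Of the 70, 6 were at an unadjusted p under 0.05 for the interaction, among them HLA-B, CD48, ITGB8, ITGA6 and ITGAX. ITGB8 was at 1.03 in the first set and 0.40 in the second, and ITGA6 at -2.15 and -0.89. CD48 was at -0.94 and -0.30. ITGAX differed more in the second set, at -1.801 and -4.28, and it had no counts in chaetocin replicates 3 and 4.

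**Figure D4:**
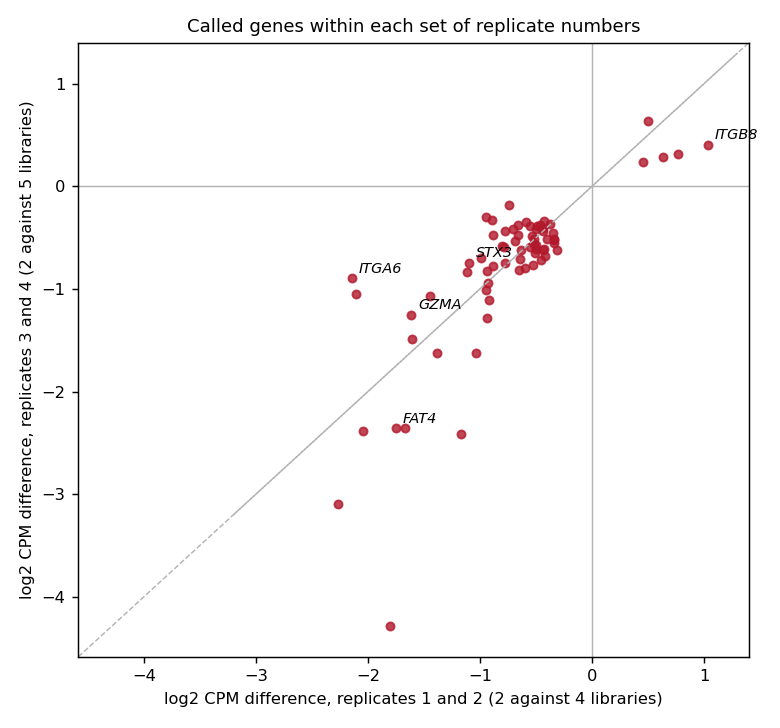
Log2 CPM difference of chaetocin from the other libraries for the 70 called genes in replicate numbers 1 and 2 (horizontal) and 3 and 4 (vertical), with the diagonal dashed. All points lie in the lower left or upper right field, and ITGB8 and ITGA6 are nearer 0 in numbers 3 and 4. The genes were called on these same libraries.

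The genes called in every one of the 13 fits that left out 1 library were STX3, ITGB7, SLFN5, CDYL2, ASB2, RHOBTB3, RNF144A, OAS2, GPR155, IL2RB, FAT4, GBP6, HLA-E, LPGAT1 and MEOX1, 15 in all, and 38 genes were called in at least 10 of the 13. Of the 70, 18 were called again without chaetocin replicate 2, 29 without chaetocin replicate 1, 42 without chaetocin replicate 4, 43 without chaetocin replicate 3 and 38 without romidepsin replicate 1. Without the replicate-number term the 11 called were STX3, ITGB7, SLFN5, CDYL2, ASB2, RHOBTB3, GPR155, OAS2, IL2RB, FAT4 and GZMA. With romidepsin left out of the pool the 6 called were STX3, ITGB7, RNF144A, SLFN5, RHOBTB3 and ASB2. With a minimum log2 fold of 0.5 in the null hypothesis, edgeR called 0 genes, with 228 at an unadjusted p under 0.05.

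**Figure D5:**
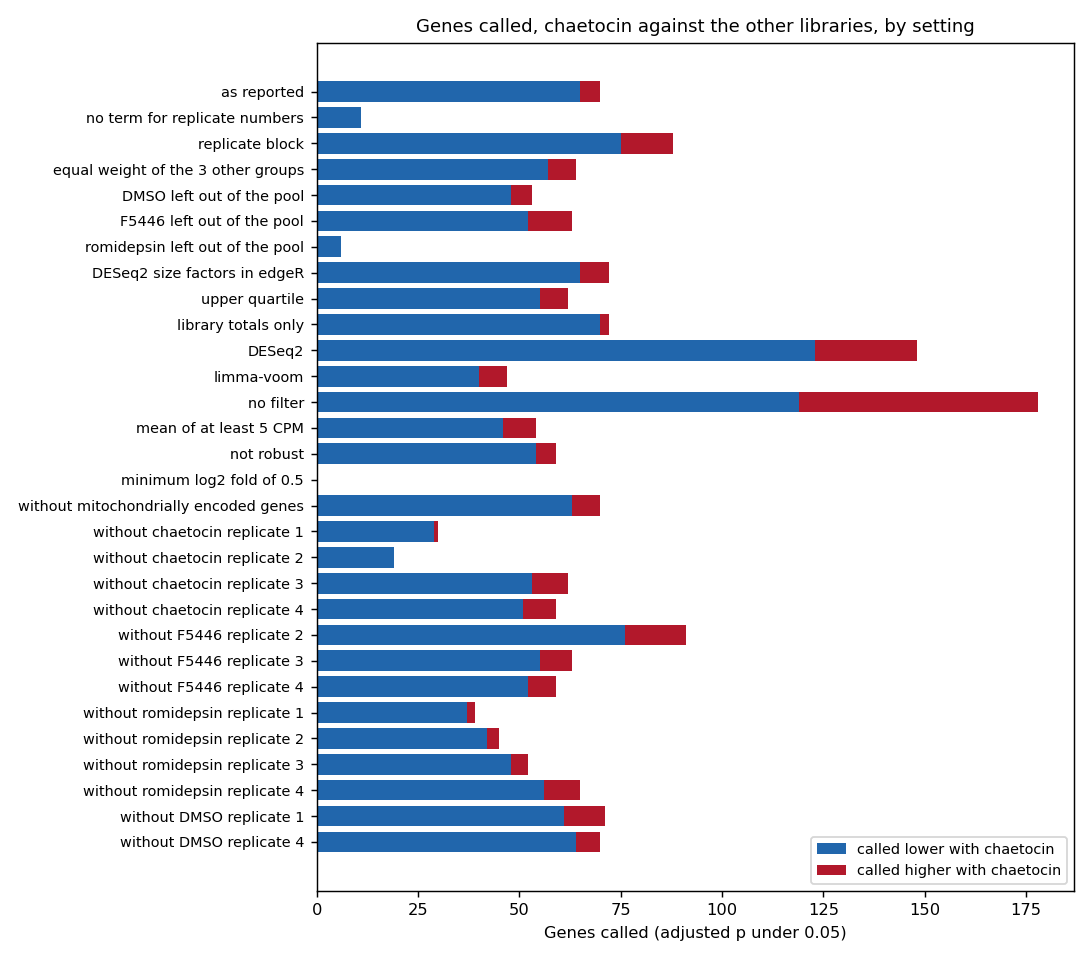
Number of genes called lower (blue) and higher (red) with chaetocin, as reported and under each alternative setting or with 1 library left out. The count is 70 as reported, 6 with romidepsin left out of the pool, 11 with no replicate-number term, 19 without chaetocin replicate 2, 148 by DESeq2 and 178 with no filter on low counts, and genes called lower outnumber those called higher wherever any are called.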

How the data were processed

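Per the labels' protocols, RNA came from a column kit that includes DNase, and the library kit is one for human RNA including degraded RNA. The authors deposited raw counts per gene, whole numbers for 45744 genes in 13 libraries, and per the submitters' processing notes used bcl2fastq 2.20.0.422, cutadapt 1.8.1 and HTSeq 0.6.1 on hg19. Which aligner, strand setting and annotation release were used is not given in the sources used here. Overlapping and antisense genes therefore cannot be separated. For the F5446 libraries the titles were followed, since the treatment tags vary in the last digit. Date-like symbols (27) and clone names (1703) were replaced through their Ensembl identifiers.

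Genes with enough counts by the filterByExpr rule of edgeR over the 4 treatments were kept. They were fitted with edgeR 4.0.16 in R 4.3.3 (TMM, robust quasi-likelihood test, two-sided) on the replicate-number set and chaetocin. Benjamini-Hochberg adjustment was over all genes tested, with a threshold of 0.05, and confidence intervals are at 95%. Each single reference was tested in a model of 4 groups with the same term. Comparison of ranges used log2 CPM with a prior count of 2. Differences within a set of replicate numbers are differences of mean log2 CPM. The interaction was tested in a separate edgeR fit on the replicate-number set, chaetocin and their interaction. No pair of libraries of the same treatment agreed within sampling noise. The fit was tested on simulated data.

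Named genes are the 15 largest falls and rises among called genes of at least 5 CPM, the 15 with the smallest p over the 3 references, drug-target genes, and called or top 3 members of gene lists; exceptions are marked, and some genes that the rule names are counted but not reported here. The comparison, the lists and the replicate-number term were chosen with earlier results of these data known. Alternatives were DESeq2 1.42.0, limma-voom (limma 3.58.1), other scalings and filters, a replicate block, groups left out of the pool and each library left out. Leaving out every library numbered 3 and the interaction with the replicate-number set were added after seeing the data. Promoters came from RefSeq on GRCh38.p14 and served for sequence only. Plots were made in Python 3.11.15 (matplotlib 3.10.9).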

Additional observations from a re-analysis of the deposited data

Results flagged for a closer look

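Of 146 groups of 4 libraries tested over the called genes and the library measures, 3 held a library set apart from the others of its group by the Dixon criterion, where chance gives about 1 in 20. GBP2 was at 12.7 CPM in chaetocin replicate 4 and at 15 to 15.2 in the other 3 chaetocin libraries. WWP1 was at 32.7 CPM in romidepsin replicate 4 and at 42.1 to 43.7 in the other 3. TRANK1 was at 51.4 CPM in romidepsin replicate 2 and at 35 to 37.6 in the other 3. All 3 genes were called lower with chaetocin.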

How the results depend on the processing

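The count of called genes, 70, became 11 without the replicate-number term, 6 with romidepsin left out of the pool, 148 by DESeq2, 178 with no filter on low counts and 0 with a minimum log2 fold of 0.5. Those on the same side of each of the 3 groups, 68, became 11, 6, 124, 141 and 0 under these settings. The genes outside the range of the others, 132, became 253 with F5446 left out, 331 with romidepsin left out and 351 with every library numbered 3 left out. Fewer libraries make separation easier, and the cause of the other shifts was not tested. With 1 library left out at a time the counts ran from 19 to 91, from 19 to 84 and from 145 to 284. Without the term, 0 genes were called among the 3 other groups (4 with it) and 1 for romidepsin (19 with it). With no filter, 66.9% of calls were lower, against 92.9%. Replicate numbers were not taken to pair the samples, since a correlation above 0.1 was required of every same-numbered pair and 8 of 15 had one. All 15 were positive, at 0.04 to 0.22 (median 0.11, against -0.07 for other numbers). Group means were subtracted first, so a positive value for the same number comes with lower values for other numbers. The gap between these medians is therefore partly built in. For other numbers within the same set the median was 0.06, and across the sets it was -0.09. With their own number 10 of 13 libraries correlated best, a hint of pairing from the data alone. The replicate block gave 88 calls, 67 of them among the 70, and did not call MS4A1, ACTA2 or ITGA6 (adjusted p = 0.0584, 0.0584 and 0.0564). None of the 70 genes changed sign in the 30 alternatives, which reuse the counts on which the genes were called. Of 31 named genes that were not called, 8 did: TXN was at -0.0087 with F5446 left out, -0.0082 by limma-voom and -0.048 with library totals, EHMT2 at -0.0056 with library totals and HDAC1 at 0.036 with romidepsin left out. Without libraries numbered 3, SUV39H1 was at 0.090, SUV39H2 at -0.0060, EHMT1 at -0.0098, TXN at -0.20, STAT2 at 0.012 and ISG15 at -0.089. Over single omissions EHMT2 ran from -0.032 to 0.19, SUV39H1 from -0.16 to 0.067, SUV39H2 from -0.0029 to 0.23, TXN from -0.18 to 0.11, STAT2 from -0.11 to 0.031 and ISG15 from -0.10 to 0.23. At these depths, differences of genes under 5 CPM rest on few counts.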
